A study of Mus musculus with 2 samples.

Results

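The genes described here encode 8 parts of the switch that takes a cell from G1 into S phase: the D cyclins *Ccnd1*, *Ccnd2* and *Ccnd3*, the E cyclins *Ccne1* and *Ccne2*, the kinase *Cdk6*, and the inhibitors *Cdkn1a* and *Cdkn1b*, which encode p21 and p27. They were chosen by name, and all 8 were among the 11691 genes of the table of unique molecular identifiers (UMIs). The cells were CD31+CD45+c-Kit+CD41- cells, sorted after culture of E8.5 tissues of C57/BL6 mice with 5 to 7 somite pairs. Em-Ex cells came from explants of the embryo itself and YS-Ex cells from explants of the yolk sac, and both were grown for 9 to 10 days at an air-liquid interface with SCF, IL-3 and FLT3 ligand, each at 100 ng/ml. For the cells profiled here, the study names day 10 of culture. Each tissue gave 1 droplet library, and no cell is tied to an animal or explant. With 1 library per tissue there is no replicate, no test was made, and the 95% intervals hold counting error only, so that tissue of origin and library cannot be told apart.

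D cyclins are made in answer to growth signals and bind CDK4 or CDK6, which begin to phosphorylate the retinoblastoma protein and so release E2F transcription factors. E2F then drives the E cyclins, which activate CDK2 at the entry into S phase, while p21, a target of p53, and p27 hold the kinases back. In blood formation *Ccnd2* and *Ccnd3* serve many lineages, CDK6 is prominent in immature cells, and p27 is known for its part in the quiescence of progenitors.

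After the limits on genes and mitochondrial UMIs that the study's methods give, 3071 Em-Ex cells and 2087 YS-Ex cells remained, with 42752370 and 27031627 UMIs. The study's own plot counts 3504 and 3037 cells, the same as the deposited barcodes. Cells were called *Cpa3*-high at 40 or more *Cpa3* UMIs per 10000 UMIs of the cell, *Cpa3* being a mast cell protease gene. This class held 2200 Em-Ex cells (71.6%) and 1946 YS-Ex cells (93.2%), and the *Cpa3*-low class held 871 (28.4%) and 141 (6.76%). Between 30 and 50 *Cpa3* UMIs per 10000, close to the limit, lay 284 Em-Ex and 87 YS-Ex cells. The 10 genes of a mast cell list summed to 42030 and 45699 UMIs per 1000000 (CPM) in *Cpa3*-high cells of Em-Ex and YS-Ex, and to 5622 and 11781 CPM in *Cpa3*-low cells. *Cpa3*-low cells were split further into granule cells, with at least 10 UMIs per 10000 of *Mpo*, *Prtn3*, *Elane* and *Ctsg* (165 Em-Ex and 12 YS-Ex cells), macrophage list cells, with at least 10 UMIs per 10000 of that list (31 and 9 cells), and the remaining 675 and 120 cells. *Elane* and *Ctsg* are listed at 0 in YS-Ex, so its granule cells were called on 2 of the 4 genes. An erythroid list stood at 2014 and 1649 CPM in *Cpa3*-low cells, against 90.5 and 210 CPM in *Cpa3*-high cells. A stromal list, of which 3 genes were in the table, stood at 32.9 CPM in Em-Ex *Cpa3*-low cells and 1.83 CPM in Em-Ex *Cpa3*-high cells and is listed at 0 in YS-Ex. None of the 4 endothelial markers is in the table, while *Pecam1*, *Ptprc* and *Kit*, which encode CD31, CD45 and c-Kit, had UMIs in both libraries. *Itga2b*, which encodes the CD41 that the sort left out, had 22.9 and 14.9 CPM in *Cpa3*-high cells of Em-Ex and YS-Ex. The libraries share 35 cell barcodes, and 14 of the 141 YS-Ex *Cpa3*-low cells carried one of them, 6 of these among the 12 granule cells. Without these barcodes none of the 64 ratios of the 8 genes between tissues, *Cpa3* classes or cycle classes moved beyond its interval.

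Across all filtered cells, *Ccnd2* and *Cdkn1a* were the most abundant of the genes and *Ccnd1* the least. UMIs count captured transcripts from the 3′ end, so these levels were not divided by gene length. *Ccnd2* stood at 318 CPM in Em-Ex against 290.4 CPM in YS-Ex. *Cdkn1a* stood at 262 and 378 CPM, and *Ccnd3* at 142 and 103 CPM. *Cdk6* came to 39.9 CPM in Em-Ex against 20.4 CPM in YS-Ex, and *Cdkn1b* to 10.7 and 52.7 CPM. The remaining cyclins stood at 15.8 and 7.73 CPM for *Ccne1*, 7.65 and 12.5 CPM for *Ccne2*, and 6.18 and 1.07 CPM for *Ccnd1*. Thus *Cdkn1b* was the fourth most abundant of the genes in YS-Ex but only the sixth in Em-Ex.

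A gene was counted as past 2-fold when its ratio of CPM passed 2 in either direction, with at least 50 UMIs over the cells compared. Between Em-Ex and YS-Ex over all cells, 2 of the genes were higher in Em-Ex, *Ccnd1* and *Ccne1*, where 8.35% of 11146 genes were. *Cdkn1b* was lower, as were 10.3% of all genes. Within *Cpa3*-high cells none was higher, against 1.9% of all genes, and *Cdkn1b* was again lower, against 12%. The median gene in that comparison lay at -0.11 on the log2 scale, so the libraries were not balanced. Within *Cpa3*-low cells *Ccnd1* was higher in Em-Ex, against a background of 9.25%, and *Ccne2* and *Cdkn1b* were lower, against 13.4%. These shares count genes that are listed at 0 throughout 1 library, 241 in Em-Ex and 725 in YS-Ex, and without such genes the shares higher in Em-Ex were 5.13% over all cells, 1.73% in *Cpa3*-high and 6.59% in *Cpa3*-low cells. After every cell was thinned to 2000 UMIs, *Ccnd3*, *Ccne1* and *Cdk6* also passed 2-fold there, *Ccnd3* at 1.23 in place of 0.63 and *Ccne1* at 2.05 in place of 0.51 on the log2 scale, against 14.5% of all genes. *Ccne1* over all cells fell just short of 2-fold with totals that left out the 50 most abundant genes, and *Ccne2* in *Cpa3*-low cells did so at a *Cpa3* limit of 80 (-0.99 in place of -1.60 on the log2 scale).

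**Figure D1:**
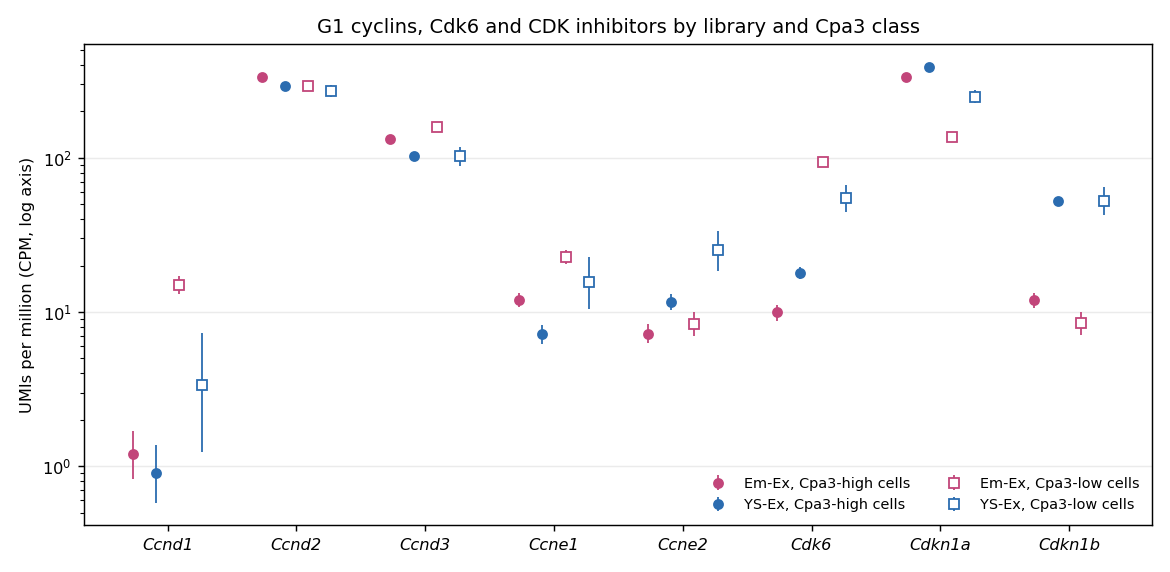
Levels of the 8 genes in CPM (log axis) by library (color) and *Cpa3* class (filled circles for *Cpa3*-high, open squares for *Cpa3*-low cells), with exact Poisson 95% intervals over the pooled UMIs of 1 library each. *Cdk6* and *Ccnd1* are higher in the *Cpa3*-low class in both libraries, and *Cdkn1b* is near 53 CPM in both YS-Ex classes but near 12 and 8 CPM in Em-Ex.

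*Ccnd2* was the main D cyclin transcript in both *Cpa3* classes of both libraries. In *Cpa3*-high cells it stood at 332 CPM in Em-Ex (95% interval 325 to 339) and 292 CPM in YS-Ex (285 to 299), a ratio of 1.14 (1.10 to 1.17). In *Cpa3*-low cells it stood at 293 and 269.6 CPM, a ratio of 1.09 (0.989 to 1.20). From the lowest to the highest of these 4 levels, *Ccnd2* had the narrowest span of the 8 genes by ratio. The 31 macrophage list cells of Em-Ex differed from the rest, with 64.8 CPM of *Ccnd2* (42.7 to 94.2, from 27 UMIs) against 333 CPM in the granule cells and 287 CPM in the remaining *Cpa3*-low cells.

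*Ccnd3* was the next D cyclin, at 132 CPM in Em-Ex against 103 CPM in YS-Ex *Cpa3*-high cells, a ratio of 1.29 (1.23 to 1.36). In *Cpa3*-low cells it stood at 159 and 102 CPM, a ratio of 1.55 (1.33 to 1.81), which on the log2 scale was 0.63 and moved to 1.23 after thinning. *Cpa3*-low and *Cpa3*-high cells of YS-Ex had nearly the same level of *Ccnd3*, with a ratio of 0.998 (0.854 to 1.16). In Em-Ex that ratio was 1.20 (1.14 to 1.26), which on the log2 scale (0.26) equals the shift of the median gene (0.26). By cycle class, as defined further on, the YS-Ex ratio was 0.948 (0.729 to 1.21) in cells low in both lists. It was 0.719 (0.528 to 0.960) in S list high and 1.87 (1.41 to 2.45) in G2/M list high cells, so the levels were alike only over all classes together.

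*Ccnd1* had a higher CPM in *Cpa3*-low cells of both libraries, and in Em-Ex most of its UMIs came from that class. Em-Ex *Cpa3*-low cells held 231 *Ccnd1* UMIs (15.0 CPM, 13.2 to 17.1), and the more numerous *Cpa3*-high cells 33 (1.21 CPM, 0.830 to 1.69), a 12.5-fold difference (8.63 to 18.5). In YS-Ex the counts were 6 UMIs (3.36 CPM, 1.23 to 7.31) and 23 UMIs (0.911 CPM, 0.578 to 1.37), a ratio of 3.68 (1.23 to 9.31). *Ccnd1* did not differ between libraries beyond counting error in *Cpa3*-high cells, where the ratio was 1.32 (0.754 to 2.36), and was 4.48-fold higher in Em-Ex in *Cpa3*-low cells (2.03 to 12.3). Within the Em-Ex *Cpa3*-low class, granule cells and the remaining cells both had 14.7 CPM, and the macrophage list cells had 26.4 CPM (13.2 to 47.2) from 11 UMIs. Over 5 ranges of the *Cpa3* level of the cell, the Em-Ex level of *Ccnd1* was 20.5 CPM below 5 *Cpa3* UMIs per 10000 (17.9 to 23.4), then 3.54, 2.41 and 1.74 CPM, and 0.747 CPM at 100 or more. In YS-Ex it was 6.20 CPM (1.69 to 15.9, from 4 UMIs), then 3.35, 1.19 and 1.07 CPM, and 0.867 CPM, and the intervals of the libraries were separate in the lowest range and overlapped in the other 4. That range held 538 of 871 *Cpa3*-low cells of Em-Ex but 40 of 141 of YS-Ex. Most of its *Cpa3*-low UMIs, 218 of 231, thus came from the 538 cells with the least *Cpa3*. The erythroid and stromal lists were also higher in *Cpa3*-low cells, as given above, and their part in the *Ccnd1* level was not tested.

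The use of the D cyclins can be read as the share of their summed UMIs, which does not depend on the scaling by library totals. *Ccnd2* made up 71.3% of D cyclin UMIs in Em-Ex *Cpa3*-high cells (95% Clopper-Pearson interval 70.5 to 72.1) and 73.8% in YS-Ex *Cpa3*-high cells (73.0 to 74.7). In *Cpa3*-low cells its share was 62.8% in Em-Ex (61.6 to 63.9) and 71.8% in YS-Ex (68.3 to 75.2). The shift in Em-Ex went to both partners, since *Ccnd3* held 34.0% in *Cpa3*-low against 28.5% in *Cpa3*-high cells and *Ccnd1* 3.22% against 0.259%. In YS-Ex the *Cpa3*-low and *Cpa3*-high intervals overlapped for *Ccnd2* and for *Ccnd3* (27.3% and 25.9%), and *Ccnd1* held 0.894% and 0.230%.

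**Figure D2:**
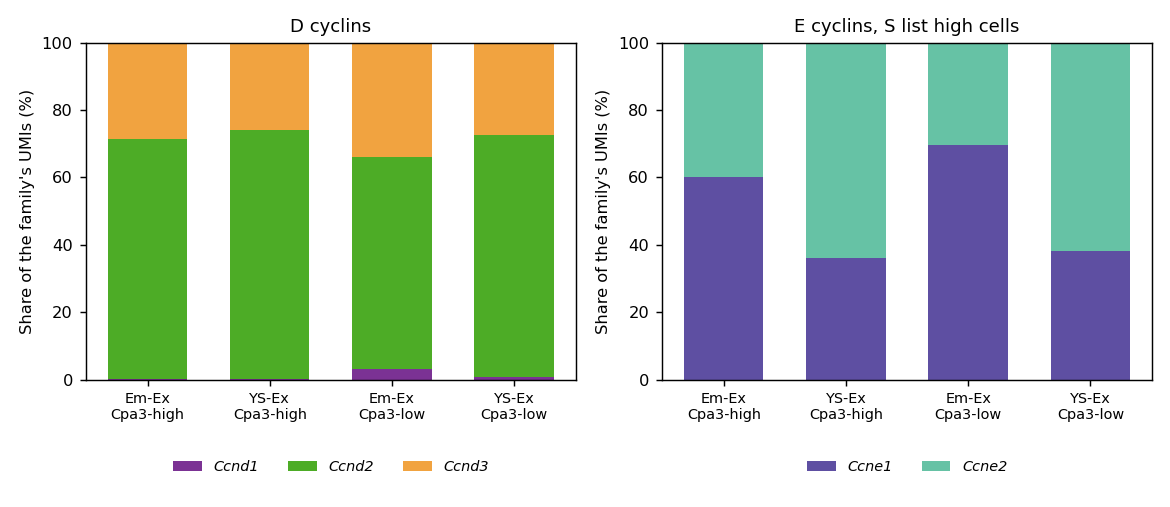
Share of the summed UMIs of the D cyclins (left, by library and *Cpa3* class) and of the E cyclins (right, in S list high cells of the same classes, the 40 gene S phase list being ranked over all cells) held by each gene, in percent. *Ccnd2* holds 62.8% to 73.8% of D cyclin UMIs, and the larger E cyclin is *Ccne1* in Em-Ex and *Ccne2* in YS-Ex.

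Cell by cell, at the deposited depth, *Ccnd2* and *Ccnd3* were most often found together. UMIs of both, without *Ccnd1*, were seen in 63.1% of Em-Ex and 58.2% of YS-Ex *Cpa3*-high cells, and in 61.2% and 42.6% of *Cpa3*-low cells. All 3 D cyclins were seen in 13.9% of Em-Ex *Cpa3*-low cells against 1% of Em-Ex *Cpa3*-high, 0.771% of YS-Ex *Cpa3*-high and 0.709% of YS-Ex *Cpa3*-low cells. Depth differed, with a median of 16935 UMIs per cell in Em-Ex *Cpa3*-low cells and 10227 in YS-Ex *Cpa3*-low cells. After every cell was thinned to 2000 UMIs, which left out no cell, *Ccnd2* alone was seen in 34.9% and 35.5% of *Cpa3*-high cells of Em-Ex and YS-Ex and in 29.97% and 34.0% of *Cpa3*-low cells. *Ccnd2* with *Ccnd3* but without *Ccnd1* was then seen in fewer, 10.0% and 6.78% of *Cpa3*-high and 11.1% and 6.38% of *Cpa3*-low cells. No D cyclin was seen in 43.3% and 47.7% of *Cpa3*-high and 42.0% and 52.5% of *Cpa3*-low cells. At that depth *Ccnd1* was seen in 2.30% of Em-Ex *Cpa3*-low cells and 0.182% of Em-Ex *Cpa3*-high cells, and in 0% of YS-Ex *Cpa3*-low cells (upper limit 2.58%). All 3 D cyclins were then seen in 0.115% of Em-Ex *Cpa3*-low and 0.0514% of YS-Ex *Cpa3*-high cells and in 0% of the other classes. As a gauge of free RNA, *Mpo*, a neutrophil granule gene, was seen without thinning in 4.68% of Em-Ex and 0.565% of YS-Ex *Cpa3*-high cells, at median depths of 11246 and 11809 UMIs. A *Ccnd1* UMI was seen in 1.23% of Em-Ex and 1.13% of YS-Ex *Cpa3*-high cells. Over all cells *Mpo* stood at 133.7 CPM in Em-Ex against 12.2 CPM in YS-Ex, far above *Ccnd1* in each, and the gauge was not scaled for that, so neither *Ccnd1* share is read as expression or as background.

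*Cdk6* was lower in *Cpa3*-high than in *Cpa3*-low cells of both libraries. In Em-Ex it stood at 93.3 CPM in *Cpa3*-low cells (88.5 to 98.2) and 9.93 CPM in *Cpa3*-high cells (8.79 to 11.2), a 9.39-fold difference (8.24 to 10.7). In YS-Ex the levels were 54.8 CPM (44.5 to 66.8) and 17.9 CPM (16.3 to 19.7), a 3.06-fold difference (2.43 to 3.81). At a *Cpa3* limit of 80 per 10000 the YS-Ex difference was 0.86 on the log2 scale in place of 1.62 and no longer past 2-fold. Granule cells had the highest level, 175 CPM in Em-Ex (162 to 189) and 211 CPM in YS-Ex (151 to 287, from 40 UMIs in 12 cells, and 214 CPM in the 6 cells without a shared barcode), against 66.5 and 34.3 CPM in the remaining *Cpa3*-low cells. Within Em-Ex, granule cells were 2.63-fold above those remaining cells (2.37 to 2.93), where 1.92% of all genes were higher by 2-fold, and 77 of 9410 genes lay above *Cdk6*. *Cdkn1b* was the member lower in that comparison, 2.65-fold (1.54 to 4.89), against 9.09% of all genes. Set against *Cpa3*-high cells of Em-Ex, granule cells had 3 members higher by 2-fold, *Cdk6* 17.6-fold, *Ccnd1* 12.2-fold and *Ccne1* 2.41-fold, against 18.7% of all genes. There *Cdkn1a* and *Cdkn1b* were lower, 3.97-fold and 3.14-fold, against 16.5%.

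The library difference of *Cdk6* had opposite directions in the 2 *Cpa3* classes. Over all cells Em-Ex stood 1.96-fold above YS-Ex (1.78 to 2.16). Within *Cpa3*-high cells it stood 1.81-fold below (1.55 to 2.11), and within *Cpa3*-low cells 1.70-fold above (1.39 to 2.11). *Cpa3*-low cells made up 28.4% of Em-Ex but 6.76% of YS-Ex cells, and the share of granule cells, called on fewer genes in YS-Ex, was 5.37% against 0.575%. Of the *Cpa3*-low cells, 538 of 871 in Em-Ex but 40 of 141 in YS-Ex had fewer than 5 *Cpa3* UMIs per 10000. By *Cpa3* range, *Cdk6* stood at 122 CPM in Em-Ex (115 to 129) against 102 CPM in YS-Ex (79.1 to 130) below 5 *Cpa3* UMIs per 10000, and at 8.35 and 18.2 CPM at 100 or more. In the 3 ranges between, the levels were 38.2 and 30.1 CPM, 25.03 and 27.3 CPM, and 11.8 and 17.2 CPM, so the intervals of the libraries overlapped in each of the 3 ranges that make up the *Cpa3*-low class.

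**Figure D3:**
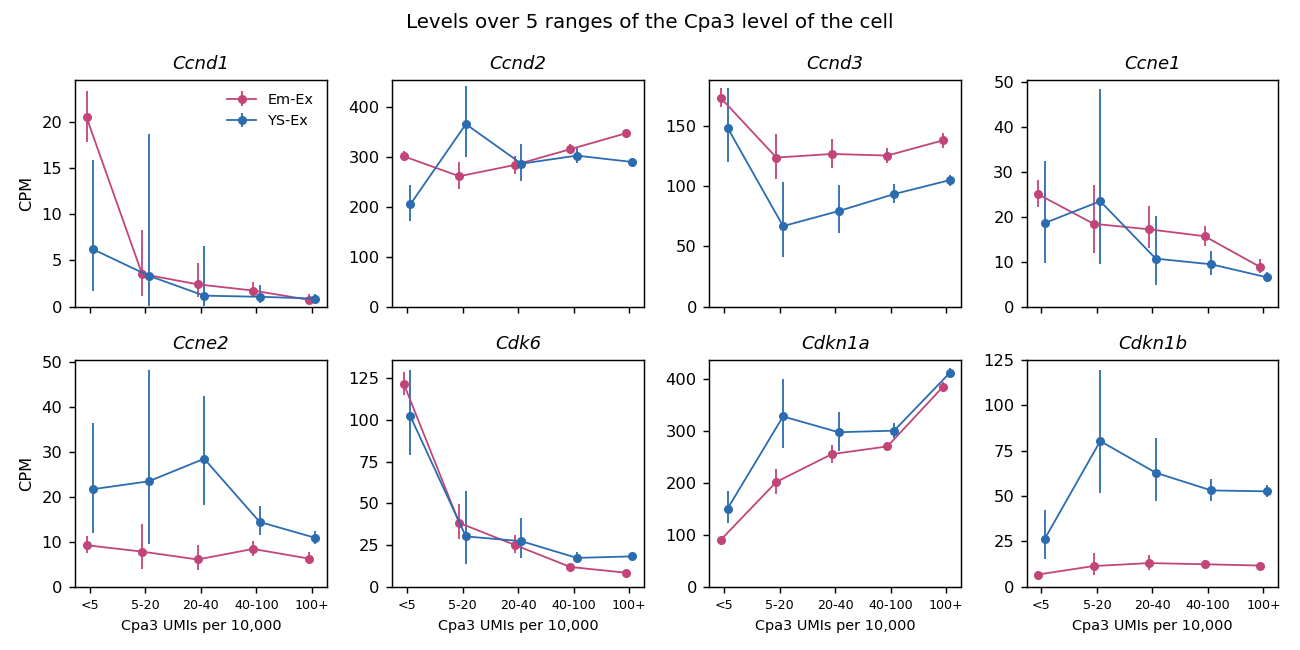
Level of each gene in CPM (linear axes from 0) over 5 ranges of the *Cpa3* level of the cell, for Em-Ex (pink) and YS-Ex (blue), with exact Poisson 95% intervals. *Cdk6* and *Ccnd1* are highest below 5 *Cpa3* UMIs per 10000, *Cdkn1a* is highest at 100 or more, and *Cdkn1b* is higher in YS-Ex in every range.

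*Cdkn1a* had the reverse pattern of *Cdk6*. Its level was 332 CPM in Em-Ex against 387 CPM in YS-Ex *Cpa3*-high cells, and 136 and 249 CPM in *Cpa3*-low cells. *Cpa3*-low cells were thus 2.44-fold lower in Em-Ex (2.32 to 2.56) and 1.55-fold lower in YS-Ex (1.41 to 1.71). By cycle class, as defined further on, the Em-Ex difference was 1.39-fold in cells low in both lists (1.29 to 1.51), 2.63-fold in S list high (2.41 to 2.86) and 1.89-fold in G2/M list high cells (1.72 to 2.08), so it passed 2-fold in 1 of the 3. In YS-Ex it was 1.17-fold, 1.51-fold and 1.87-fold. Granule cells had the least, 83.7 CPM in Em-Ex against 63.2 CPM in YS-Ex (61.2 CPM, from 10 UMIs, without the shared barcodes). From the lowest to the highest *Cpa3* range, the level was 90.4, 202, 255, 270.2 and 385 CPM in Em-Ex, and 150.3, 328, 298, 301 and 412 CPM in YS-Ex. Em-Ex lay below YS-Ex by 1.17-fold in *Cpa3*-high cells (1.13 to 1.20) and by 1.83-fold in *Cpa3*-low cells (1.65 to 2.03).

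*Cdkn1b* had the largest ratio between the libraries in both *Cpa3* classes. In *Cpa3*-high cells it had 327 UMIs in Em-Ex (11.9 CPM, 10.7 to 13.3) and 1330 in YS-Ex (52.7 CPM, 49.9 to 55.6), which is 4.41-fold lower in Em-Ex (3.91 to 4.99). In *Cpa3*-low cells the levels were 8.46 CPM (7.07 to 10.0) and 52.6 CPM (42.5 to 64.4), which is 6.22-fold lower (4.72 to 8.17). The 2 libraries did not overlap in either class or in any of the 5 *Cpa3* ranges, in which Em-Ex stood at 6.67 to 13.0 CPM and YS-Ex at 26.3 to 80.3 CPM. Of the 10596 genes compared in *Cpa3*-high cells, 100 had a lower ratio than *Cdkn1b* (0.944%), and of 9730 in *Cpa3*-low cells, 39 did (0.401%). A UMI was seen in 12.9% of Em-Ex and 43.2% of YS-Ex *Cpa3*-high cells, and in 1.77% and 9.97% after thinning. Between *Cpa3* classes, YS-Ex cells had a ratio of 0.998 (0.801 to 1.23) and Em-Ex cells 0.708 (0.573 to 0.870). Em-Ex granule cells had 3.80 CPM (2.13 to 6.27), the lowest of the 3 splits of *Cpa3*-low cells in that library. Of the sum of both inhibitors, *Cdkn1b* held 3.47% in Em-Ex and 12.0% in YS-Ex *Cpa3*-high cells.

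Comparing *Cpa3*-low with *Cpa3*-high cells, 2 of the 8 genes in Em-Ex were higher by 2-fold (*Ccnd1* and *Cdk6*), where 16.7% of all genes were, and 1 was lower (*Cdkn1a*), against 7.62%. In YS-Ex, 7 of the genes had 50 UMIs, and 3 of them were higher (*Cdk6*, *Ccne1* and *Ccne2*) against 8.63% of all genes, and none lower against 3.39%. On the log2 scale the median gene lay at 0.26 for Em-Ex and 0.13 for YS-Ex. Centred on it, 11.4% of all genes were higher and 10.97% lower in Em-Ex, and 6.74% and 4.57% in YS-Ex, where *Ccne2* then fell just short of 2-fold. At a *Cpa3* limit of 80, *Ccne1* passed 2-fold in YS-Ex while *Cdk6* and *Ccne2* did not. *Ccne1* and *Ccne2* in YS-Ex rested on 28 and 45 UMIs of *Cpa3*-low cells, with ratios of 2.18 (1.41 to 3.26) and 2.16 (1.54 to 2.97). After thinning the *Ccne1* value was 0.16 in place of 1.15 on the log2 scale, from very few UMIs of YS-Ex *Cpa3*-low cells. In Em-Ex the ratios of *Ccne1* and *Ccne2* were 1.90 (1.63 to 2.21) and 1.16 (0.922 to 1.46). Lists of S phase and G2/M genes, used again further on, moved with the *Cpa3* class, the S list at 2558 against 1511 CPM in Em-Ex and 2379 against 1313 CPM in YS-Ex, and the G2/M list at 5770 against 3314 CPM and 5880 against 2797 CPM. Among cells in which the S list was high, the *Cpa3*-low to *Cpa3*-high ratio of *Ccne1* was 1.12 (0.943 to 1.33) in Em-Ex and 1.19 (0.738 to 1.84) in YS-Ex, and that of *Ccne2* 0.735 (0.578 to 0.933) and 1.08 (0.754 to 1.52). In G2/M list high cells of Em-Ex *Ccne1* was again higher in the *Cpa3*-low class, with a ratio of 2.25 (1.43 to 3.59).

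The promoters of *Ccne1* and *Cdkn1b* are shown. *Ccne1* is the E cyclin with a promoter entry, and *Cdkn1b* has the largest library difference in both *Cpa3* classes. *Ccne2*, which has the larger ratio by cell cycle class of the E cyclins, has no entry. The sequences of the entries shown follow. These sequences are RefSeq sequence of GRCm38.p6 from 250 bases before to 50 after the gene start in RefSeq, at chr7:38107441-38107740 (minus strand) for *Ccne1* and chr6:134920151-134920450 (plus strand) for *Cdkn1b*, and read 5′ to 3′ on the strand of the gene. Capitals mark GGGCGG (GC box) and CCAAT on either strand.
Ccne1: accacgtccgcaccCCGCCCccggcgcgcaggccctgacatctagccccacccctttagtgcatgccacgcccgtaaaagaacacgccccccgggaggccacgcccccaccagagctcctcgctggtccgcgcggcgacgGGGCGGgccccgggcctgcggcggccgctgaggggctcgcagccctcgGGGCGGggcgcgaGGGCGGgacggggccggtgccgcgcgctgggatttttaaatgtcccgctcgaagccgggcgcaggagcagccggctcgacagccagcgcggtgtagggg
Cdkn1b: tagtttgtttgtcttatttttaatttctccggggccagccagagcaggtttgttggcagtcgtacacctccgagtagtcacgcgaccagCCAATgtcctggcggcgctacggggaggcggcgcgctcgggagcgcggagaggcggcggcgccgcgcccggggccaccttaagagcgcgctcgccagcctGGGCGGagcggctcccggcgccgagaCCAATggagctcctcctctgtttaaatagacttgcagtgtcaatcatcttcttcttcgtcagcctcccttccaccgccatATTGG

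The *Ccne1* window held 4 GC boxes and no CCAAT, and the *Cdkn1b* window 1 GC box and 3 CCAAT, with a base content of 76.0% and 62.0% G and C. GC boxes were found in 35.7% and CCAAT in 37.4% of all 32851 promoters of this length. Of the 8859 genes of the table with such a promoter, 69.3% and 43.4% had them in any of their promoters. Shares of genes are thus not the same measure as shares of promoters. None of the E2F words TTTCCCGC, TTTGGCGC, TTTCGCGC and TTTGCCGC was found on either strand in the windows of the 5 members with an entry (*Ccnd3*, *Ccne1*, *Cdk6*, *Cdkn1a* and *Cdkn1b*). These words were in 2.26% of all promoters. Counted by gene, over any of its promoters, they were in 4.81% of table genes and in 12 of 29 genes of the S phase list (41.4%). A match or its absence describes these letters only. The genes lie, in the GENCODE annotation of GRCm38, whose start of *Ccne1* is not that of RefSeq, at chr7:144929931-144939925 (*Ccnd1*), chr6:127125162-127152193 (*Ccnd2*), chr17:47505051-47599691 (*Ccnd3*), chr7:38097984-38107534 (*Ccne1*), chr4:11191351-11204779 (*Ccne2*), chr5:3341485-3531008 (*Cdk6*), chr17:29090976-29100727 (*Cdkn1a*) and chr6:134920401-134925513 (*Cdkn1b*). All but *Ccne1* and *Cdkn1b* overlap a gene of the opposite strand in the annotation, *Bysl* with *Ccnd3* and *Ints8* with *Ccne2* being in the table, and whether counting used strand is not given in the sources used here.

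Cells were also ranked by the UMIs of 40 S phase and 53 G2/M genes, lists that hold none of the 8 genes. Cells at a rank of 0.667 or above in a list, counted from 0 to 1, were called S list high or G2/M list high by the higher rank, and the others low in both. These classes are ranges of a score, not cell cycle phases. Among *Cpa3*-high cells, Em-Ex had 1293 cells low in both, 493 S list high and 414 G2/M list high, and YS-Ex had 1407, 291 and 248.

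The E cyclins were highest in S list high cells. *Ccne1* in Em-Ex *Cpa3*-high cells was at 34.8 CPM when the S list was high (30.7 to 39.3) and 2.66 CPM when both lists were low (1.86 to 3.68), a 13.1-fold difference (9.23 to 19.1). In YS-Ex the levels were 30.9 and 0.842 CPM, a 36.7-fold difference (21.2 to 68.8). *Ccne2* was at 23.0 and 0.591 CPM in Em-Ex, a 38.9-fold difference (19.3 to 91.6), and at 55.0 and 0.782 CPM in YS-Ex, a 70.4-fold difference (40.4 to 134). Of the 9259 and 9666 genes compared, 12 in each library had a larger ratio than *Ccne2*. In G2/M list high cells the E cyclins lay below S list high cells but above cells low in both, with 4.75 and 5.40 CPM of *Ccne1* and 2.69 and 5.40 CPM of *Ccne2* in Em-Ex and YS-Ex. For *Ccne1* in Em-Ex the interval (3.20 to 6.78) overlapped that of cells low in both.

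Which E cyclin was the larger differed between the libraries. In S list high *Cpa3*-high cells *Ccne2* held 39.8% of E cyclin UMIs in Em-Ex (35.1 to 44.5) and 64.0% in YS-Ex (59.2 to 68.7). Over all *Cpa3*-low cells, where YS-Ex had 73 E cyclin UMIs in all, the shares were 26.99% (23.1 to 31.2) and 61.6% (49.5 to 72.8). In the S list high *Cpa3*-high cells *Ccne1* was at nearly the same level, with an Em-Ex to YS-Ex ratio of 1.13 (0.918 to 1.39), and *Ccne2* was 2.39-fold lower in Em-Ex (1.97 to 2.92). Over all *Cpa3*-high cells *Ccne1* was 1.67-fold higher in Em-Ex (1.39 to 2.01). Among cells low in both lists, the ratio was 3.16 (1.66 to 6.34), from 36 and 14 UMIs.

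**Figure D4:**
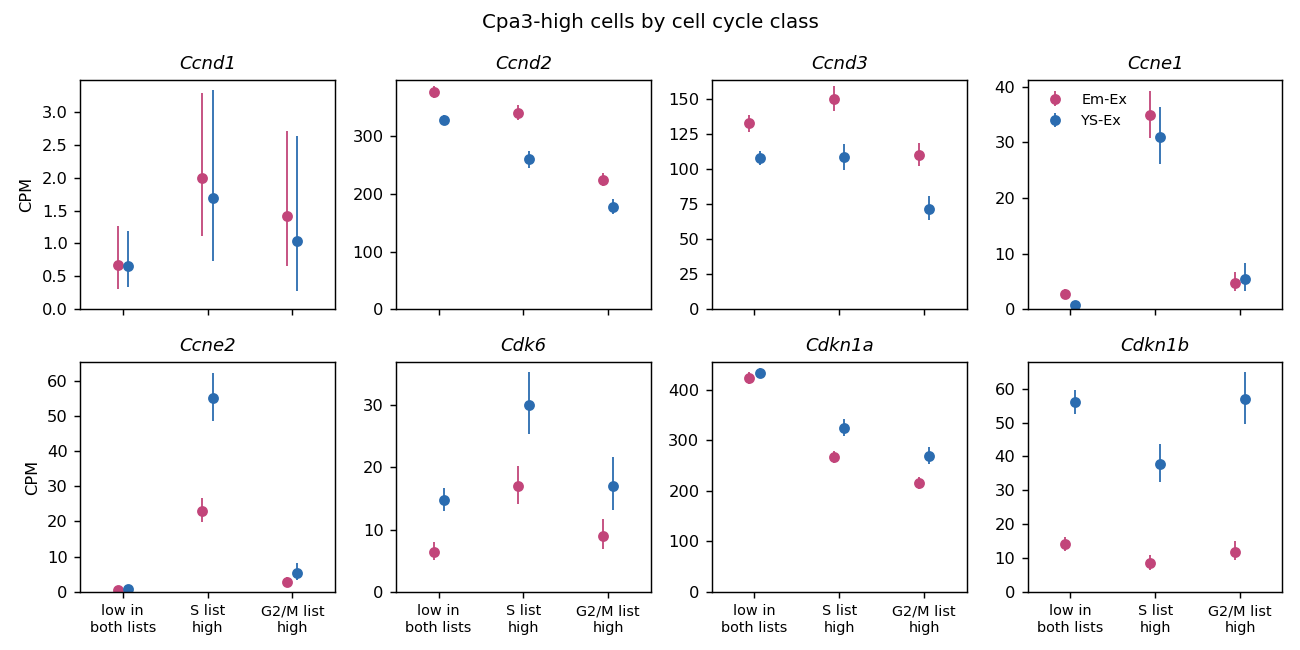
Level of each gene in CPM (linear axes from 0) in *Cpa3*-high cells that are low in both cycle lists, S list high or G2/M list high, for Em-Ex (pink) and YS-Ex (blue), with exact Poisson 95% intervals. The E cyclins peak in S list high cells, *Ccnd2* is lowest in G2/M list high cells, and *Cdkn1b* is lower in Em-Ex in every class.

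*Ccnd2* and *Ccnd3* varied much less over these classes. From low in both to S list high to G2/M list high, *Ccnd2* stood at 377, 341 and 225 CPM in Em-Ex and at 328, 259.9 and 178 CPM in YS-Ex. *Ccnd3* stood at 133, 150.3 and 110.1 CPM in Em-Ex and at 108, 109 and 71.8 CPM in YS-Ex. Em-Ex lay above YS-Ex in all 3 classes for both genes, by 1.15-fold to 1.31-fold for *Ccnd2* and 1.23-fold to 1.53-fold for *Ccnd3*. *Ccnd1* had 15 UMIs or fewer in each class.

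*Cdk6* was higher in S list high than in low cells, by 2.65-fold in Em-Ex (17.0 against 6.43 CPM, ratio interval 2.00 to 3.52) and by 2.04-fold in YS-Ex (30.05 against 14.7 CPM, 1.65 to 2.52). It stayed lower in Em-Ex within each cycle class of *Cpa3*-high cells, with Em-Ex to YS-Ex ratios of 0.436 (0.338 to 0.559) in cells low in both, 0.566 (0.443 to 0.724) in S list high and 0.531 (0.366 to 0.769) in G2/M list high cells. The difference between *Cpa3* classes held within each cycle class of Em-Ex. There, in cells low in both lists, *Cdk6* stood at 34.2 CPM in *Cpa3*-low cells (27.1 to 42.7) against the 6.43 CPM of *Cpa3*-high cells (5.15 to 7.93), and in S list high cells at 110.2 CPM against 17.0 CPM. In YS-Ex the *Cpa3*-low to *Cpa3*-high ratio was 3.31 (2.43 to 4.47) in S list high and 2.47 (1.44 to 4.10) in G2/M list high cells. In YS-Ex cells low in both it was 1.28 (0.654 to 2.28), from 12 UMIs in *Cpa3*-low cells, and did not exceed counting error.

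*Cdkn1a* was highest in cells low in both lists, at 423 CPM in Em-Ex against 432 CPM in YS-Ex *Cpa3*-high cells. It stood at 267 and 324 CPM in S list high and at 215 and 269 CPM in G2/M list high cells. In cells low in both the libraries hardly differed, with a ratio of 0.979 (0.945 to 1.01), while the ratio was 0.824 (0.770 to 0.881) in S list high and 0.797 (0.735 to 0.865) in G2/M list high cells. In *Cpa3*-low cells of Em-Ex, *Cdkn1a* was 2.98-fold lower in S list high than in low cells (102 against 303 CPM, 2.68 to 3.31).

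*Cdkn1b* stood at 14.0, 8.38 and 11.9 CPM over the 3 classes of Em-Ex *Cpa3*-high cells and at 56.0, 37.7 and 56.9 CPM over those of YS-Ex. Its Em-Ex to YS-Ex ratio was 0.249 (0.212 to 0.292), 0.222 (0.164 to 0.298) and 0.209 (0.158 to 0.272). The ratio within each cycle class was thus close to that over all *Cpa3*-high cells (0.227), and the library difference was larger than the difference between cycle classes, where S list high cells were 1.67-fold lower than low cells in Em-Ex (1.25 to 2.25) and 1.49-fold lower in YS-Ex (1.26 to 1.75). Among cells low in both lists, *Cdkn1b* and *Cdk6* were the members lower in Em-Ex by 2-fold, against 12.8% of all genes, and *Ccne1* the one higher, against 1.61%. Among S list high cells *Ccne2* and *Cdkn1b* were lower, against 12.1%, and none of 7 was higher, against 1.68%. Among G2/M list high cells *Cdkn1b* was lower, against 9.93%, and none of 6 was higher, against 1.86%.

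**Figure D5:**
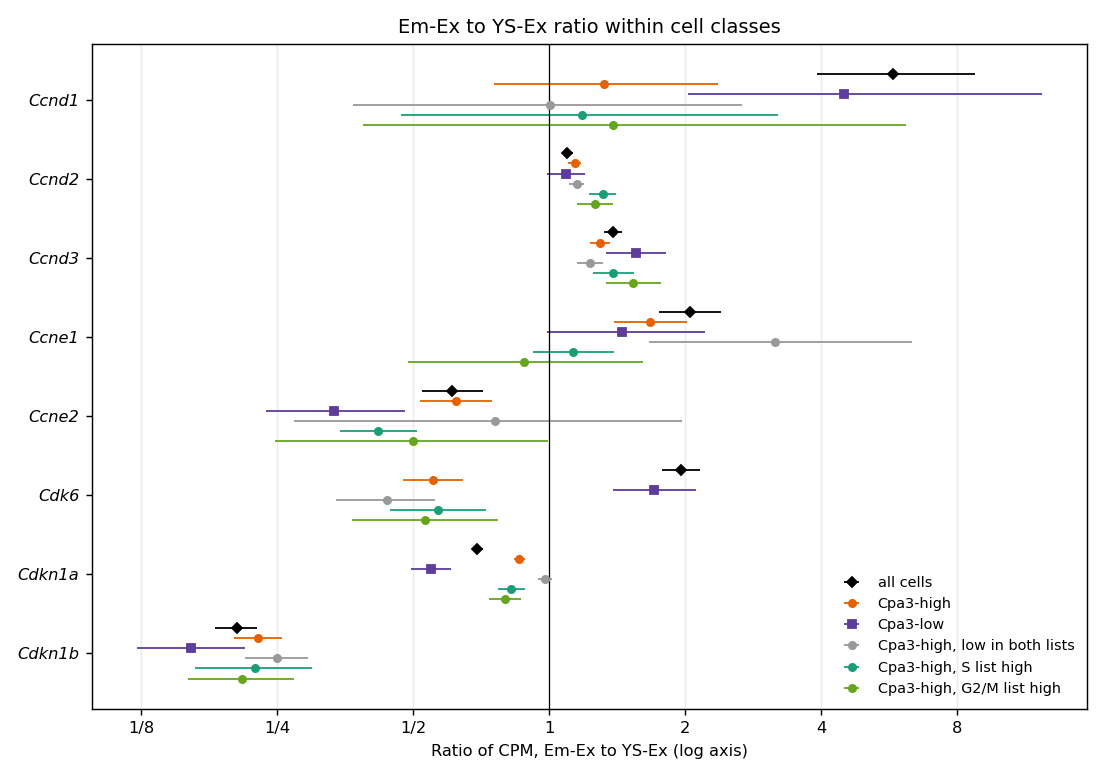
Ratio of CPM, Em-Ex to YS-Ex (log axis), for each gene over all cells, within *Cpa3* classes and within cycle classes of *Cpa3*-high cells, with exact binomial 95% intervals. *Cdkn1b* lies between 0.161 and 0.249 in all 6 groups of cells, and *Cdk6* lies at 1.96 over all cells but at 0.554 in *Cpa3*-high cells.

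By 2-fold between S list high and low *Cpa3*-high cells, 3 of the 7 genes with 50 UMIs were higher in Em-Ex, against 7.36% of all genes, and the same 3 (*Ccne1*, *Ccne2* and *Cdk6*) in YS-Ex, against 6.61%. None was lower in either, where 2.13% and 1.99% of all genes were. Centred on the median gene, *Cdk6* in YS-Ex fell just short of 2-fold, where 5.98% of all genes were higher. In *Cpa3*-low cells of Em-Ex *Ccne1*, *Ccne2* and *Cdk6* were again higher, against 17.4%, and *Cdkn1a* and *Cdkn1b* lower, against 10.5%. Centred on the median gene, these shares were 13.5% and 13.2%. *Cdkn1b* rested on 43 UMIs against 31 and fell short of 2-fold after thinning, with a mitochondrial limit of 10% and at a *Cpa3* limit of 20. There *Ccne1* stood at 39.0 against 3.51 CPM, while *Ccne2* had 120 UMIs against 1, a ratio of 38.5 with an interval of 6.79 to 1535. After thinning its log2 ratio was 2.03 in place of 4.69.

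The rest of the pathway was read from lists of kinases and cyclins, inhibitors, pocket proteins and E2F factors, turnover factors and p53 targets, 42 genes of which 40 were in the table. Between the libraries in *Cpa3*-high cells, 2 of 39 genes were higher in Em-Ex and 5 lower, against 1.73% and 11.7% of all genes, when genes listed at 0 throughout 1 library were left out. *Ccna2*, the S and G2 cyclin, had a ratio of 2.08 (1.89 to 2.28), and *Cdkn1c*, which encodes the inhibitor p57, had 2.97 (1.98 to 4.56) from 103 and 32 UMIs. Lower in Em-Ex were the pocket protein genes *Rb1*, 2.11-fold, and *Rbl2*, 2.83-fold, the E2F partners *Tfdp1* and *Tfdp2*, 3.19-fold and 2.41-fold, and the antiproliferative gene *Btg2*, 2.88-fold. *Cdkn2a*, left out of these counts, had 119 UMIs in YS-Ex and is listed at 0 in Em-Ex, whose columns are above 0 only for genes with UMIs in at least 30 barcodes. *Cdk4*, which encodes the other kinase that binds D cyclins, stood at 273 CPM in Em-Ex against 168 CPM in YS-Ex, a ratio of 1.63 (1.57 to 1.69), so it lay in the other direction from *Cdk6*. *Trp53* and its target *Mdm2* had ratios of 1.18 (1.11 to 1.25) and 1.14 (1.04 to 1.26).

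Between *Cpa3*-low and *Cpa3*-high cells, 8 of 37 pathway genes were higher in Em-Ex, against 16.7% of all genes, and 8 of 39 in YS-Ex, against 8.63%. None was lower in either, against 7.62% and 3.39%. *Cdc25a*, *Cdkn1c*, *E2f5*, *Skp2* and *Cks1b* were in both counts. *Skp2* and *Cks1b*, which act in the destruction of p27, were 2.42-fold and 2.38-fold higher in Em-Ex and 2.56-fold and 2.397-fold higher in YS-Ex. *Cdkn1c* stood at 81.2 against 3.76 CPM in Em-Ex and at 24.1 against 1.27 CPM in YS-Ex, the highest of the inhibitors by ratio in each.

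In S list high against low *Cpa3*-high cells, 13 of 36 pathway genes were higher in Em-Ex, against 7.36% of all genes, and 12 of 36 in YS-Ex, against 6.61%. In each library 1 was lower, against 2.13% and 1.99%. The 2 libraries shared *Cdk4*, *Ccna2*, *Cdc25a*, *Cdkn2c*, *Rbl1*, *E2f1*, *E2f2*, *E2f6*, *E2f8*, *Skp2* and *Cks1b*. *Ccna2* was 19.4-fold higher in Em-Ex and 26.7-fold in YS-Ex, *E2f8*, a repressor of the family, 13.0-fold and 9.34-fold, and *Cdkn2c*, which encodes the CDK4 and CDK6 inhibitor p18, 7.29-fold and 13.1-fold. *Rb1* was at 12.9 against 11.6 CPM in Em-Ex and at 25.4 against 23.4 CPM in YS-Ex.

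Over 10 groups of at least 30 cells, the levels of the genes were set beside those of 8790 genes with at least 300 UMIs, as log2(CPM + 1). The groups were the cycle classes of *Cpa3*-high cells in each library, every split of *Cpa3*-low cells in Em-Ex, and the remaining *Cpa3*-low cells of YS-Ex. Granule and macrophage list cells of YS-Ex were too few. The groups share libraries and classes, so Pearson's r is a description. *Ccne1* was most like *Orc6* (r = 0.974), *Dut* and *Mms22l*, and *Ccne2* most like *Brca1* (0.963), *Slbp*, which is in the S list, and *Mcm3*. *Ccnd2* was most like *Rps9* (0.958), *Sytl1* and *Orai2*, and *Ccnd3* most like *Naca* (0.959), *Rpl13a* and *Rpl32*, all but *Sytl1* and *Orai2* being genes of ribosomal proteins or nascent chains. *Cdk6* was most like *A230050P20Rik* (0.970), *Ikbkap* and *AI662270*, *Cdkn1a* most like *Laptm5* (0.985), *Frmd4a* and *Cish*, and *Cdkn1b* most like *Ccdc186* (0.995), *Zcchc6* and *Golga5*. *Ccnd1*, with fewer than 300 UMIs, was not compared. Among the members, the pairs most alike were *Ccne1* and *Ccne2* (r = 0.917) and *Ccnd2* and *Ccnd3* (0.890), and the pair most opposed was *Cdk6* and *Cdkn1a* (-0.83). The 31 macrophage list cells of Em-Ex were the lowest group for both *Ccnd2* and *Ccnd3*, at 64.8 and 50.4 CPM, and r without them was not computed.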

How the data were processed

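Per the submitters' processing notes, reads were handled with bcl2fastq 2.19.1.403 and Cell Ranger 2.0.1 against mm10. The annotation version is not given in the sources used here. The authors deposited 1 table of raw UMI counts per gene and cell barcode, holding 3504 Em-Ex and 3037 YS-Ex barcodes with 48630888 and 34566242 UMIs, and 0 columns could not be mapped to a library. Cells with 1000 to 5000 genes and at most 5% UMIs from 13 mitochondrial genes were kept (87.6% and 68.7% of barcodes). No doublet caller was run, and the upper gene limit was the only step against doublets.

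Counts were summed over the cells of a group and divided by the summed UMIs per 1000000 (CPM), with exact Poisson intervals at 95%. Ratios have exact binomial and shares exact Clopper-Pearson intervals, and PCR and cell sampling are not in them. The 2-fold count used log2 ratios with a prior count of 0.5. The scripts were tested on simulated counts. Named genes are the 8 members, pathway genes past 2-fold, and the 3 genes most alike in profile to each member. *Cdk4*, *Rb1*, *Trp53* and *Mdm2* are also named where they did not pass 2-fold, which was chosen after their values were seen. The members and lists were chosen with earlier results of these data known. Python 3.11.15, numpy 2.4.6, scipy 1.17.1, pandas 2.3.3 and matplotlib 3.10.9 were used.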

Additional observations from a re-analysis of the deposited data

How the results depend on the processing

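No paired analysis was possible because each tissue gave 1 library and no test was run. Over 14 alternatives, 110 of 696 member ratios moved beyond their counting interval, 37 moved by over 1.5-fold, and 36 changed sign, 0 of them past 2-fold. The split into 5 *Cpa3* ranges, the contrast of its ends, the limit to cells low in both cycle lists, the *Cpa3* contrast within cycle classes, the counts without genes listed at 0 and the granule levels without shared barcodes were chosen after seeing the data.

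The share of D cyclin UMIs held by *Ccnd2* in Em-Ex *Cpa3*-low cells was 64.1% with every barcode, 63.9% with no upper limit on genes, 61.4% at a *Cpa3* limit of 20 and 65.8% at 80. In YS-Ex *Cpa3*-high cells it was 74.98% with every barcode, 75.01% with a mitochondrial limit of 10%, 75.5% as a mean over cells and 77.1% after thinning to 2000 UMIs. In YS-Ex *Cpa3*-low cells it was 76.4% as a mean over cells, 80.4% after thinning and 66.6% at a limit of 20, and in Em-Ex *Cpa3*-high cells 72.9% after thinning. The *Ccne2* share in YS-Ex S list high cells was 70.2% after thinning.

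The share of all genes past the same fold in the same direction stands in parentheses, after thinning from a draw over every gene. The minimum of 50 UMIs was applied to the counts before thinning. After thinning, 1 member was higher in Em-Ex, *Ccne1*, in *Cpa3*-high cells (3.26%), 4 were in *Cpa3*-low cells, *Ccnd1*, *Ccnd3*, *Ccne1* and *Cdk6* (14.5%), and 1 was lower in S list high cells of Em-Ex, *Cdkn1b* in *Cpa3*-high (5.4%) and *Cdkn1a* in *Cpa3*-low cells (13.3%). The latter count was also 1 with a mitochondrial limit of 10% (10.7%) and at a *Cpa3* limit of 20 (10.6%). Totals without the 50 most abundant genes left 1 member higher in Em-Ex over all cells (7.91%). At a limit of 80, 2 members were lower in Em-Ex in *Cpa3*-high (12.4%) and 1 in *Cpa3*-low cells (11.1%), and 1 was higher in *Cpa3*-low than *Cpa3*-high cells of YS-Ex (4.58%). At 1.5-fold, for Em-Ex against YS-Ex, 2 members were lower over all cells (23.0%), 1 higher (8.31%) and 3 lower (26.3%) in *Cpa3*-high cells and 3 higher in *Cpa3*-low cells (20.5%), 1 was lower in YS-Ex *Cpa3*-low cells (9.02%), and 2 were lower in S list high *Cpa3*-high cells of Em-Ex (8.19%). With cells under 5 against 100 or more *Cpa3* UMIs per 10000, 1 member was lower in YS-Ex, *Cdkn1a* (11.4%). With cells low in both cycle lists only, 1 was higher (1.61%) and 2 lower (12.8%) in Em-Ex *Cpa3*-high cells.

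Thinning moved the log2 ratio of *Ccne2* between S list high and low *Cpa3*-high cells from 5.20 to 3.94 in Em-Ex and from 6.09 to 5.17 in YS-Ex, and that of *Ccne1* between *Cpa3*-low and *Cpa3*-high cells of YS-Ex from 1.15 to 0.16. Rare transcripts such as *Ccnd1* in YS-Ex, with 29 UMIs, are limited by depth.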
